A study of Homo sapiens with 2 samples.

Results

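The genes described here are the protein-coding genes at the short-arm end of human chromosome 2, bands 2p25 to 2p23, taken by start position on GRCh38 from FAM110C, the first protein-coding gene of the chromosome in the RefSeq table, to IFT172. By that rule, which leaves out 5 genes of the interval (ID2, GRHL1, RRM2, DNAJC27 and DNAJC5G), there were 139 genes. Of these, 122 had a probe set annotated to that gene alone, out of 19775 such genes on the array. The interval was chosen by the same CD90+ over CD90- ratios that are reported below, so its low ratios are given as a description. The arrays compared 2 fractions sorted by flow cytometry from KYSE-140, a cultured human cell line from a squamous carcinoma of the esophagus (ESCC): CD90+ cells, which carry CD90 at the surface (1 sample), and CD90- cells, which do not (1 sample). CD90 is the surface glycoprotein encoded by THY1. Both fractions came from the same line, the labels name no treatment, and each was measured as total RNA on 1 Affymetrix U133 Plus 2.0 array each. The labels do not say whether a fraction was pooled from several sorts. With 1 sample in each group there is no replicate error, no test and no p-value, and every fold change describes these RNA samples only.

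Distal 2p is a stretch whose best known cancer gene is MYCN, the MYC-family transcription factor amplified in neuroblastoma. It also holds ODC1, which makes the first enzyme of polyamine synthesis, RPS7 of the small ribosomal subunit, and the paired genes HADHA and HADHB of the mitochondrial enzyme complex that degrades long-chain fatty acids. Tumour lines often carry unequal copy numbers of chromosome segments, and transcripts of a segment tend to follow its copy number. No DNA measurement was used here.

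Signals were MAS5 intensities on a linear scale, and each array had been scaled to the same trimmed mean (499.9 on both). Signals below a floor of 71.6, the median of all probe sets, were set to it before the log2 ratio of CD90+ over CD90- was taken, and a fold with one side below the floor is a bound. A gene counted as measured where either array read the probe set that stood for it at the floor or above. This held for 91 of the 139 genes, against 12466 genes in the whole data set. THY1 read 293 in CD90+ and 78.9 in CD90- cells, in the direction of the sort. The 4 squamous markers with a probe set (KRT5, KRT14, SOX2 and DSG3) all reached the floor, and the dimmest of them, DSG3, read 2898 in CD90+ and 2036 in CD90- cells. Their summed signal was 50905 in CD90+ and 52350 in CD90- cells. The 5 fibroblast markers stayed under the floor on both arrays, with a summed signal of 159 in CD90+ and 124 in CD90- cells, and the 3 leukocyte markers did so with a sum of 38.5 in CD90+ and 106 in CD90- cells. Of 3 endothelial markers, PECAM1 alone reached the floor, at 98.5 in CD90+ and 70.9 in CD90- cells, and the list summed to 134 in CD90+ and 83.7 in CD90- cells.

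Transcripts of this interval were mostly lower in CD90+ cells, by a modest amount in many genes rather than by large changes of single genes. The median log2 ratio of the 91 measured genes was -0.39, which corresponds to 1.31-fold lower signal in CD90+ cells, with quartiles of -0.59 and -0.11. The median of all other measured genes was 0.01. A ratio below 0 was seen in 74 of the 91 genes (81.3%), where 48.8% of all measured genes had one. At least 1.5-fold lower in CD90+ cells were 24 genes (26.4%), against a background of 6.76%, while 2 were at least 1.5-fold higher, against a background of 7.37%. Past 2-fold the numbers were small. At least 2-fold lower were 5 genes (KCNS3, LRATD1, VSNL1, WDR35 and TTC32; background 1.75%) and TRIM54 alone was at least 2-fold higher (background 2.47%). Because the same ratios chose the interval, nothing is read from these shares and they carry no test. In RNA of whole fractions, fewer cells with a transcript and less of it per cell cannot be told apart.

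**Figure D1:**
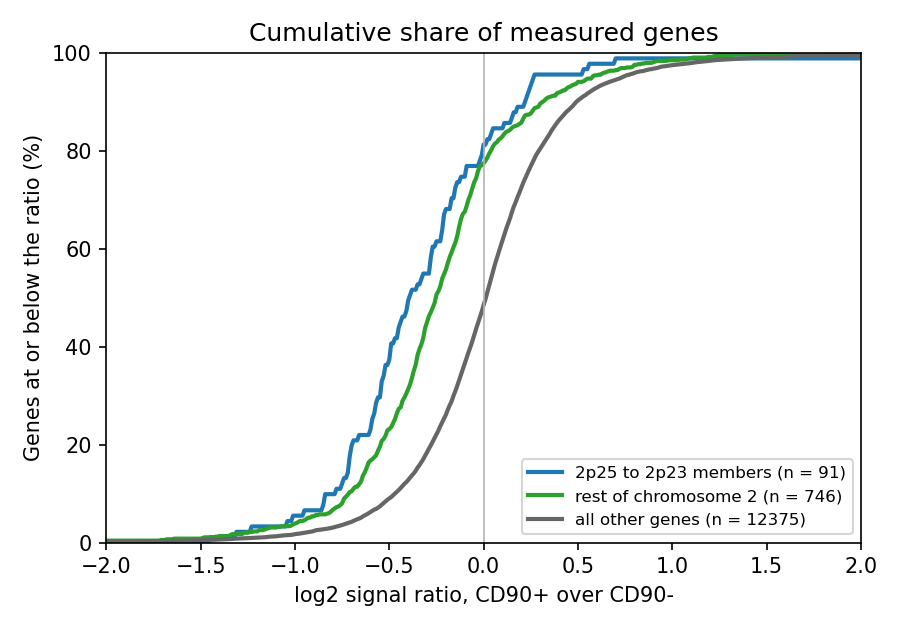
Cumulative share of measured genes (y axis, percent) at or below each log2 signal ratio of CD90+ over CD90- cells (x axis) for the 91 measured genes of 2p25 to 2p23, the other 746 measured genes of chromosome 2 and all 12375 other measured genes. The curve of the interval lies left of the others over most of its length, with medians of -0.39, -0.25 and 0.01.

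The low ratios were not evenly spread along the interval. In consecutive blocks of 10 measured genes (the last of 11), the block nearest the chromosome end, FAM110C to COLEC11, had a median log2 ratio of 0.02 with 4 of 10 genes below 0. The next 3 blocks, RNF144A to KLF11, CYS1 to LPIN1 and TRIB2 to TTC32, had medians of -0.52, -0.64 and -0.65, and all of their genes were below 0. The fifth block, WDR35 to UBXN2A, had a median of -0.24. The following blocks, WDCP to EFR3B and DNMT3A to KCNK3, were lower again, at -0.49 and -0.56. Toward the IFT172 end the median was -0.21 from SLC35F6 to SLC5A6 and 0.15 from CAD to IFT172. The interval thus had block medians near 0 at both ends and below 0 between them.

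**Figure D2:**
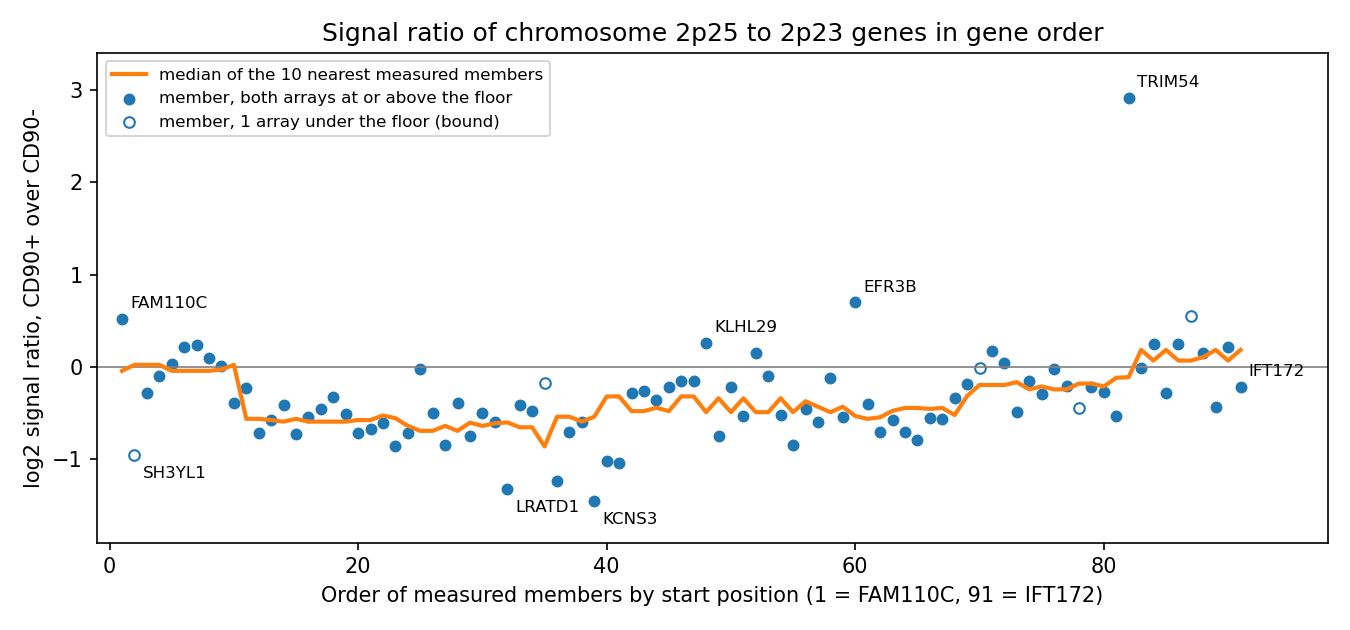
Log2 signal ratio of CD90+ over CD90- cells (y axis) for the 91 measured genes in order of start position (x axis). Open points are genes with 1 array under the floor, and the line is the median of the 10 nearest measured genes. The line lies near 0 at both ends and below 0 between them, and TRIM54 (2.92) and EFR3B (0.70) stand at least 2-fold above it.

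**Figure D3:**
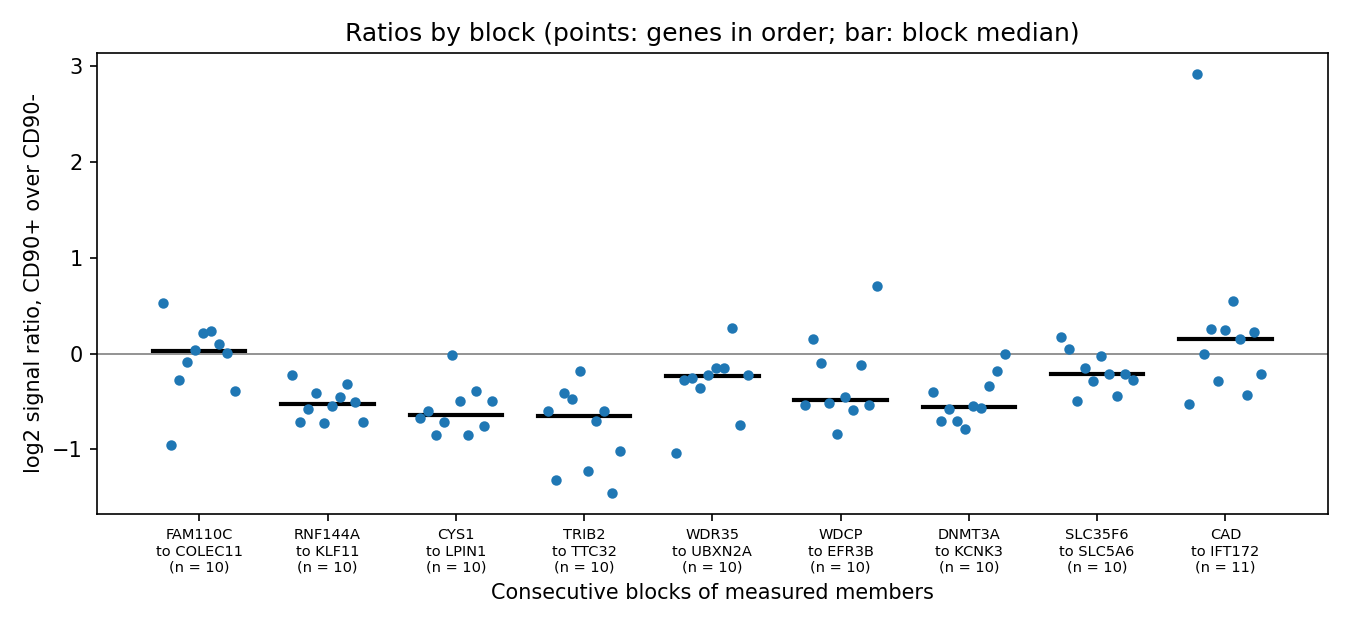
Log2 signal ratio of CD90+ over CD90- cells (y axis) in 9 consecutive blocks of measured genes (x axis), each point 1 gene and each bar the block median. Block medians run from 0.02 at the chromosome end to a low of -0.65 from TRIB2 to TTC32 and up to 0.15 from CAD to IFT172.

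The largest fall between the medians of the 10 genes before and the 10 after a point lay between COLEC11 and RNF144A, a difference of -0.55. This was the first point with 10 measured genes before it, so no earlier point was compared. The 10 measured genes up to COLEC11, a secreted collectin, had a median of 0.02, and the 10 from RNF144A, a ubiquitin ligase, one of -0.52. COLEC11 itself read 116 in CD90+ and 152 in CD90- cells (log2 ratio -0.39). RNF144A read 246 in CD90+ and 287 in CD90- cells (log2 ratio -0.22). The next 4 points in order, as far as that between ITGB1BP1 and CPSF3, gave differences of -0.52, -0.52, -0.53 and -0.53. The values therefore do not place the fall more closely than this stretch. Whether it began nearer the chromosome end was not examined. COLEC11 itself was lower than RNF144A, and 6 genes between them, among them SOX11, CMPK2 and RSAD2, had no measured value. From COLEC11 to LDAH, 38 consecutive measured genes taken by the rule were below 0, with a median of -0.52. ID2, GRHL1 and RRM2, which the rule leaves out, lie within this stretch. The run was the longest of the interval, and runs elsewhere were not counted. KLHL29 ended the run, at 257 in CD90+ and 214 in CD90- cells. The largest rise after the fall lay between WDR35 and LAPTM4A, from a median of -0.86 over the 10 genes before to -0.24 over the 10 after.

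At the chromosome end, the log2 ratio of FAM110C was 0.52, from signals of 428 in CD90+ and 298 in CD90- cells. Its neighbour SH3YL1, an SH3-domain protein, went the other way, at 51.9 in CD90+ and 138 in CD90- cells, at least 1.93-fold lower. RNASEH1, which degrades RNA in RNA-DNA hybrids, read 3138 in CD90+ and 2925 in CD90- cells. RPS7, the brightest gene of the interval, was nearly equal (log2 ratio 0.01), at 28881 in CD90+ and 28674 in CD90- cells. These genes lie before the fall, and apart from SH3YL1 none was 1.5-fold lower.

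Genes that departed from their neighbours were sought by subtracting, from each log2 ratio, the median of the 10 nearest measured genes of the interval. By this measure 78 of the 91 genes (85.7%) lay within 1.5-fold of their neighbours. The share of all genes within that range of their neighbours was not taken. With no neighbours subtracted, 6.76% of all measured genes were at least 1.5-fold lower and 7.37% at least 1.5-fold higher. Over the 91 genes the SD of log2 ratios was 0.53 before subtracting and 0.48 after, so most of the spread remained. At least 2-fold above their neighbours stood 2 genes, TRIM54 and EFR3B, where 2.44% of all measured protein-coding genes stood that far above their own 10 nearest on the chromosome. None stood 2-fold below, where the background was 1.48%. That count depended on the settings: SH3YL1 stood 2-fold below without a floor, with a floor at the 25th percentile or against its 6 nearest genes, and KCNS3 with a floor at the 75th percentile or against its 20 nearest.

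TRIM54 is a RING-finger protein of the muscle-specific MURF group that binds microtubules in striated muscle. It read 819 in CD90+ and 108 in CD90- cells. That is a 7.55-fold higher signal in CD90+ cells (log2 ratio 2.92). The median of its neighbours was -0.11, so that it stood 8.15-fold above them. It rests on 1 probe set, the only one of the gene, of the _s_at class that can match several transcripts. The measured genes on its sides were close to equal or lower. CAD, the enzyme of the first steps of pyrimidine synthesis, read 1300 in CD90+ and 1873 in CD90- cells. MPV17, a mitochondrial inner membrane protein, read 775 in CD90+ and 779 in CD90- cells. The high ratio of TRIM54 was thus not shared by either measured neighbour.

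EFR3B, a membrane protein that anchors a phosphatidylinositol kinase at the cell surface, read 126 in CD90+ and 77.4 in CD90- cells. Its log2 ratio was 0.70, where the median of the neighbours was -0.53. The signals were close to the floor. The other probe sets of EFR3B read 99.7 in CD90+ against 58.4 in CD90- cells and 75.9 in CD90+ against 67.2 in CD90- cells, so all 3 were higher in CD90+ cells. By the mean of its probe sets or by the least changed one, EFR3B no longer departed by 2-fold.

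Upstream sequence was compared for genes with a RefSeq promoter entry (GRCh38.p14), using the first entry of each gene and the 250 bases before its start. The sequences of both departing genes are shown with that of HADHA, whose ratio was close to its neighbours' median. They are shown because TRIM54 held far fewer CG dinucleotides, which are printed in capitals, than EFR3B or HADHA. TRIM54 lies on the plus strand at chr2:27282179-27282428, EFR3B on the plus strand at chr2:25041826-25042075, and HADHA on the minus strand at chr2:26244633-26244882.
TRIM54: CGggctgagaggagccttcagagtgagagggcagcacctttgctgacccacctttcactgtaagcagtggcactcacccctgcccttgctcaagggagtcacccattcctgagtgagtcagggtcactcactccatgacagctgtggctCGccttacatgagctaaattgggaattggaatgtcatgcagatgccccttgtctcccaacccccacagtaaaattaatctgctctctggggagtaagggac
EFR3B: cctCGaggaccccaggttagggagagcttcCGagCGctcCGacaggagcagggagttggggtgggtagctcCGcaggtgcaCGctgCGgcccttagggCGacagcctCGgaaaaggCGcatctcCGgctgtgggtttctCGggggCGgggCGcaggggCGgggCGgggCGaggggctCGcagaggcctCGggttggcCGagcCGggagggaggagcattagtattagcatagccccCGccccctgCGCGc
HADHA: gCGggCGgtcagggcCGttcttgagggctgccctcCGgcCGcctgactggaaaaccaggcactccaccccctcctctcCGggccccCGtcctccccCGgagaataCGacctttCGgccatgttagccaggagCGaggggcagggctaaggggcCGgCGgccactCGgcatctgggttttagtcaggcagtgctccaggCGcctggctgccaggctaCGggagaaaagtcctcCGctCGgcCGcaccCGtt
The TRIM54 window held 2 CG dinucleotides, the EFR3B window 24 and the HADHA window 20. The median was 24 over the 85 measured genes of the interval with an entry and 17 over all 15843 protein-coding genes with one. TRIM54 had the fewest of the 85. Windows with 3 or fewer made up 2.35% of the interval's (TRIM54 and PUM2) and 16.9% of all. PUM2, an RNA-binding repressor of translation, was close to its neighbours (log2 ratio -0.35 against -0.44), with 2124 in CD90+ and 2716 in CD90- cells. EFR3B also had a second entry that was not used. A count of letters describes the windows and shows nothing about how the genes are regulated.

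Below their neighbours by 1.5-fold to 2-fold stood LRATD1, VSNL1, KCNS3, TTC32, WDR35 and NRBP1. SH3YL1, whose CD90+ signal was under the floor, stood at least 1.97-fold below, and 2.71-fold below without the floor. The lowest ratio of the interval was that of KCNS3, a modifying subunit of voltage-gated potassium channels that forms no channel alone. It read 1151 in CD90+ and 3151 in CD90- cells, 2.74-fold lower in CD90+ cells and 1.89-fold below the median of its neighbours. LRATD1, a protein with a domain related to lecithin retinol acyltransferase, had a log2 ratio of -1.32, from 1590 in CD90+ and 3958 in CD90- cells. Its 6 measured probe sets disagreed in part, with 5 lower in CD90+ cells and the sixth, dim one higher (110 in CD90+ and 18.0, under the floor, in CD90- cells). VSNL1, a neuronal calcium sensor, read 3733 in CD90+ and 8758 in CD90- cells on one probe set and 2188 in CD90+ and 5054 in CD90- cells on the other, 2.35-fold and 2.31-fold lower. The values on both probe sets of VSNL1 were far above the floor. WDR35, a subunit of the transport complex of cilia, read 153 in CD90+ and 315 in CD90- cells, and 114 in CD90+ and 158 in CD90- cells on its other probe set (log2 ratio -0.47). TTC32, a tetratricopeptide repeat protein, read 281 in CD90+ and 567 in CD90- cells. VSNL1, KCNS3, TTC32 and WDR35 lie close together in the order of measured genes.

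Above their neighbours by 1.5-fold to 2-fold stood KLHL29, ATP6V1C2 and FKBP1B. MYCN did so through the floor alone. It was dim in these cells, at 44.6, under the floor, in CD90+ and 81.0 in CD90- cells, and its log2 ratio of -0.18 became -0.86 without the floor, equal to the median of its neighbours. ATP6V1C2, a subunit of the proton pump of acidic organelles, read 148 in CD90+ and 150 in CD90- cells on the brighter probe set and 101 in CD90+ and 196 in CD90- cells on the other, so that its departure depends on the probe set. FKBP1B, a regulator of calcium release channels, read 574 in CD90+ and 517 in CD90- cells.

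Different probe sets of one gene were the closest thing to a repeated measurement, but they were read on the same arrays. They cover differences between probe sets, not noise shared by a whole array or the spread between sorts. Of the 91 genes, 45 had at least 2 measured probe sets, and in 35 of these all went the same way. The pooled SD of log2 ratios within these genes was 0.34, against 0.31 over all 6188 genes with several. The mean of the other probe sets was below 0 in 38 of the 45 genes, with a median of -0.41, close to the -0.45 of the probe sets that stood for the same genes. Neither count of genes was taken over all 6188. Because the interval was chosen by its ratios, both counts are given as a description only. PDIA6, a disulfide isomerase of the endoplasmic reticulum, had log2 ratios from -0.50 to -0.46 on 4 probe sets. ASXL2, a chromatin regulator, had 4 measured probe sets from -0.93 to -0.65. A wide disagreement was that of AGBL5, a tubulin-modifying carboxypeptidase, from -0.29 to 0.94, with its highest ratio on a dim probe set.

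**Figure D4:**
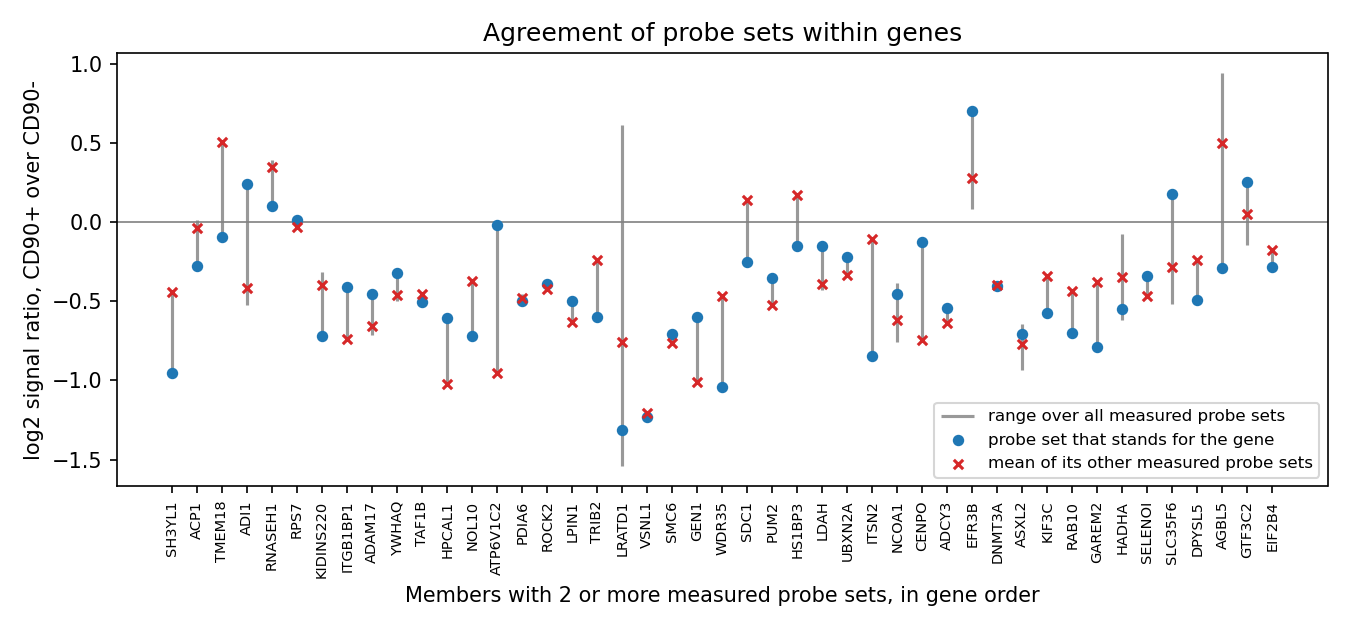
Log2 signal ratios of CD90+ over CD90- cells (y axis) for the 45 genes with at least 2 measured probe sets (x axis, gene order). Filled points are the probe set that stands for the gene, crosses the mean of its other measured probe sets, and lines the range over all. In 38 of 45 genes the cross lies below 0.

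For the role lists that follow, 81.3% of all measured genes of the interval and 48.8% of all measured genes were below 0. At least 1.5-fold lower were 26.4% of the interval and 6.76% of all measured genes. Genes for RNA and protein synthesis had 10 of 15 measured ratios below 0 and a median log2 ratio of -0.21, with 2 genes at least 1.5-fold lower and none higher by that much. CPSF3, the endonuclease that cleaves messenger RNA precursors at their 3' end, read 2605 in CD90+ and 4312 in CD90- cells. NOL10, a nucleolar protein of ribosome assembly, read 2174 in CD90+ and 3577 in CD90- cells. TAF1B, a factor of RNA polymerase I, read 606 in CD90+ and 859 in CD90- cells. SF3B6, a splicing factor subunit, lay nearer to equality at 10931 in CD90+ and 11697 in CD90- cells. CPSF3, NOL10 and TAF1B lie in the low stretch, whereas RPS7 lies outside it.

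Metabolic and mitochondrial genes had 12 of 13 measured ratios below 0 and a median of -0.34. ODC1 gave the largest difference, at 10214 in CD90+ and 18471 in CD90- cells, 1.81-fold lower in CD90+ cells. On the probe sets that stood for the genes, it was the 1 gene of this list at least 1.5-fold lower. HADHB read 4368 in CD90+ and 6468 in CD90- cells, and its partner HADHA 1646 in CD90+ and 2404 in CD90- cells. A second HADHA probe set of like signal was nearer to equality, at 1640 in CD90+ and 1723 in CD90- cells. The third read 1025.5 in CD90+ and 1575.8 in CD90- cells (log2 ratio -0.62). IAH1, an esterase, read 1220 in CD90+ and 1778 in CD90- cells. No gene of this list was 1.5-fold higher.

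Transcription and chromatin genes had 7 of 8 measured ratios below 0, a median of -0.58 and 4 genes at least 1.5-fold lower. E2F6, a repressor of the E2F family, read 1202 in CD90+ and 2023 in CD90- cells. ATAD2B, a bromodomain ATPase, read 345 in CD90+ and 579 in CD90- cells. KLF11, a Kruppel-like factor, read 510 in CD90+ and 835 in CD90- cells, and ASXL2 1066 in CD90+ and 1736 in CD90- cells. The folds of these 4 genes were alike, from 1.63 to 1.68. Of the other 5 genes of the list, SOX11 and MYT1L were among those under the floor.

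Genes of DNA repair and mitosis had 3 of 5 measured ratios below 0 and a median of -0.12. SMC6, part of a chromosome-bound repair complex, read 1387 in CD90+ and 2260 in CD90- cells. GEN1, a nuclease that resolves Holliday junctions, read 758 in CD90+ and 1148 in CD90- cells. CENPO, a kinetochore protein, read 783 in CD90+ and 853 in CD90- cells, and 165 in CD90+ and 277 in CD90- cells on its other probe set (log2 ratio -0.75). SMC6 and GEN1 lie side by side, and both were at least 1.5-fold lower.

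Genes of membrane traffic and the cytoskeleton, the list that holds TRIM54 and WDR35, had 12 of 15 measured ratios below 0 and a median of -0.29. ITSN2, an endocytic scaffold, read 274 in CD90+ and 491 in CD90- cells on the probe set that stood for it, but 1587 in CD90+ and 1711 in CD90- cells on a brighter one of the _x_at class (log2 ratio -0.11). RAB10, a GTPase of vesicle transport, read 4514 in CD90+ and 7325 in CD90- cells. Its other probe set read 4062 in CD90+ and 5488 in CD90- cells (log2 ratio -0.43). LAPTM4A, a lysosomal membrane protein, read 6821 in CD90+ and 8287 in CD90- cells. On the probe sets that stood for them, WDR35, RAB10 and ITSN2 were at least 1.5-fold lower, and TRIM54 was the 1 gene higher by that much. On its other measured probe set, none of WDR35, RAB10 and ITSN2 was 1.5-fold lower.

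Signalling and surface genes had 12 of 13 measured ratios below 0 and a median of -0.45, with 5 at least 1.5-fold lower. After KCNS3 and VSNL1 came KIDINS220, a scaffold of neurotrophin receptors, at 1702 in CD90+ and 2802 in CD90- cells. HPCAL1, a calcium sensor related to VSNL1, read 570 in CD90+ and 866 in CD90- cells. YWHAQ, a 14-3-3 adaptor and one of the brightest genes of the interval, read 19735 in CD90+ and 24675 in CD90- cells. Both interferon-inducible genes of the interval, RSAD2 and CMPK2, stayed under the floor, RSAD2 at 35.1 in CD90+ and 29.7 in CD90- cells and CMPK2 at 22.8 in CD90+ and 23.5 in CD90- cells. Across the 6 lists with measured genes the median was below 0 in each. The lists are parts of an interval chosen by these ratios, so nothing about a function is read from their medians or counts.

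Head to head, on opposite strands with starts within 1000 bases, lie 6 pairs of measured genes. HADHA and HADHB, whose products act in one complex, had log2 ratios of -0.55 and -0.57. SMC6 and GEN1 had -0.70 and -0.60, and ITGB1BP1 and CPSF3 had -0.41 and -0.73. PTRHD1 and CENPO were farther apart, at -0.59 and -0.12, although the other probe set of CENPO lay on the far side of PTRHD1. Also farther apart were SF3B6 and FAM228B, at -0.10 and -0.52. SH3YL1 and ACP1, at -0.95 and -0.28, differed most. The median difference within these pairs was 0.37, against 0.25 between genes next to each other in the order of measured genes. With the probe sets of each gene averaged, a comparison chosen after seeing the data, the medians were 0.15 and 0.26, so whether head-to-head genes were closer in ratio depended on the probe sets.

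Low ratios were seen in all 3 bands of signal. The median log2 ratio was -0.39 for 19 genes under 4 times the floor, -0.28 for 34 genes from 4 to 16 times and -0.49 for 38 brighter genes. The corresponding medians of all other genes were 0.02, 0.00 and 0.01. Members without a usable value were 31 genes under the floor on both arrays, among them APOB, POMC and PXDN, and 17 with no probe set of their own. Only 6 non-coding genes of the interval were measured, with a median log2 ratio of -0.0012 and 3 of 6 below 0, and 4 of the 6 read near the floor. The other 2 differed in direction: ID2-AS1 read 135.8 in CD90+ and 300.03 in CD90- cells, 2.21-fold lower, and RNASEH1-DT 903 in CD90+ and 638 in CD90- cells.

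Past IFT172 the ratios were near 0. The 20 measured protein-coding genes that follow had a median log2 ratio of 0.02, with 10 of 20 below 0, and the next 20 one of -0.30. IFT172, a subunit of the transport complex of cilia, read 256 in CD90+ and 297 in CD90- cells. Just beyond it SPATA31H1 read 116 in CD90+ and 71.1, under the floor, in CD90- cells, and ZNF512, a zinc finger protein, 1045 in CD90+ and 799 in CD90- cells. CCDC121 read 88.9 in CD90+ and 76.3 in CD90- cells. GPN1, a GTPase needed for nuclear import of RNA polymerase II, read 2049 in CD90+ and 2261 in CD90- cells, and SUPT7L, a subunit of the SAGA coactivator, 1129 in CD90+ and 1182 in CD90- cells. The boundary at IFT172 therefore fell inside a stretch near 0 that had begun before it.

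The interval is part of a chromosome whose genes were low in general. The other 746 measured genes of chromosome 2 had a median log2 ratio of -0.25 with 77.5% below 0, and chromosome 2 as a whole had the lowest median of the 23 chromosomes compared (-0.27), next to chromosome 18 at -0.24. Genes on other chromosomes had a median of 0.02. Of 39 consecutive blocks of 20 measured protein-coding genes along chromosome 2, 38 had a median below 0. The lowest, -0.65, was the block from GRHL1 to SMC6, which holds 18 genes of the interval, and the highest was 0.22. Outside the interval, the block from ANKRD36 to RPL31 had a median of -0.57. The interval therefore differed from the rest of chromosome 2 by less (-0.39 against -0.25) than from the rest of the genome. Whether the gap exceeds the spread between sorts was not tested.

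**Figure D5:**
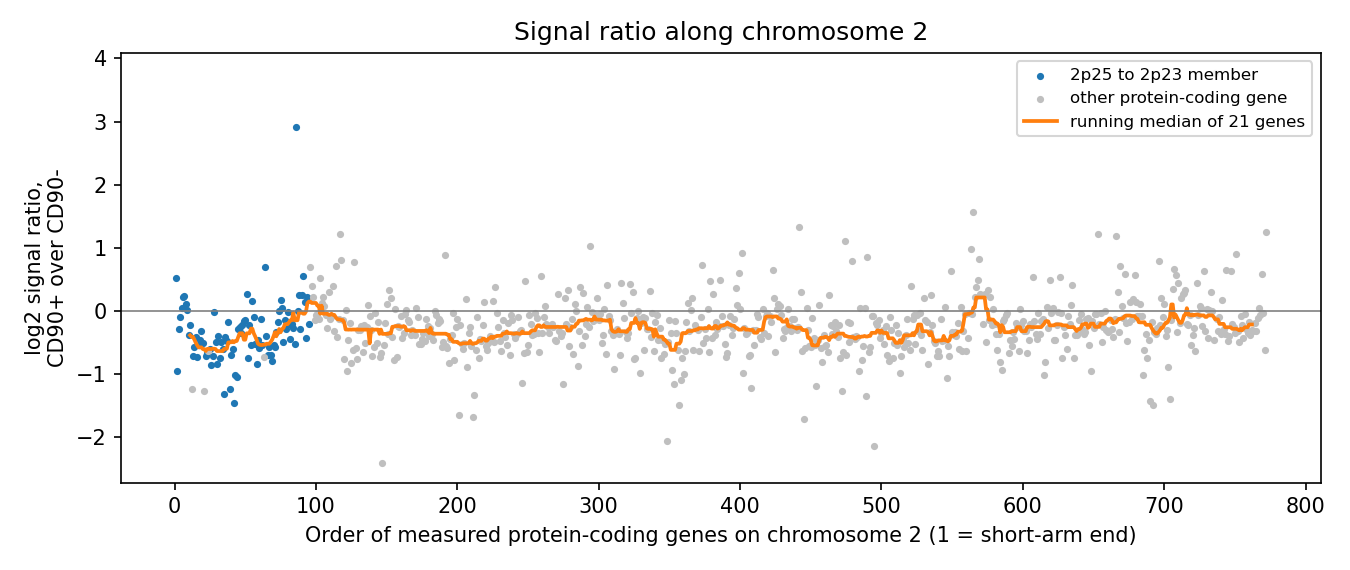
Log2 signal ratio of CD90+ over CD90- cells (y axis) for measured protein-coding genes along chromosome 2 (x axis, order from the short-arm end). Genes of 2p25 to 2p23 are blue, others grey, and the line is the running median of 21 genes. The line is below 0 along most of the chromosome and comes near 0 at the IFT172 end of the interval. It is lowest within the interval (-0.64) and nearly as low outside it (-0.62 at MITD1).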

How the data were processed

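Total RNA of 1 CD90+ and 1 CD90- fraction of KYSE-140 was measured on 1-colour Affymetrix U133 Plus 2.0 arrays, with groups taken from the cell population label. The authors deposited linear MAS5 signal intensities, per the submitters' processing notes, which name no version of the software. Equal trimmed means (2 to 98%) show a common scaling. MAS5 subtracts mismatch signal, which makes dim ratios noisy. The number of arrays limits the precision.

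Probe sets were named by the platform annotation and updated through RefSeq identifiers (GRCh38.p14), also the source of gene order, biotype and promoters. The 5 probe sets that name a gene of the interval with another gene were left out. Members, lists and rules were chosen with earlier results of these data known. One probe set stood for each gene, that with the highest mean log2 signal, _x_at only where no other existed. Coordinates are given for the printed promoter windows alone, on GRCh38.p14; the array annotation names no build. Genes were named if they departed at least 2-fold from their neighbours, lay at an end, were among the 6 brightest, led a role list by ratio or signal, formed a head-to-head pair or lay among the first 5 past IFT172. Others named were picked once their values were known. The gene-level ratios, the median of the interval, the departures from neighbours and the 2-fold counts were tested on simulated data. The blocks, steps, runs, pairs, promoter counts, role lists, signal bands and probe set agreement were not. In the simulation all genes of the interval had the same shift apart from planted departures, and noise did not depend on signal. How often false departures arise in these data was therefore not shown. Alternatives changed the floor, normalization, probe set choice, neighbours and threshold. Python 3.11.15, numpy 2.4.6, pandas 2.3.3, statsmodels 0.14.6 and matplotlib 3.10.9 were used.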

Additional observations from a re-analysis of the deposited data

How the results depend on the processing

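The median of the interval stayed below that of all other measured genes under all 10 alternatives of floor, normalization and probe set, by 0.32 (least changed probe set) to 0.46 (without shared probe set classes) on the log2 scale, against 0.40 as reported. The median of the 6 non-coding genes, a comparison added after the data were seen, was -0.0012. Genes at least 2-fold lower numbered 3 with a floor of 397 (the 75th percentile), 3 where the probe sets of a gene were averaged and 3 where the one nearest to equality stood for it, against 5. TRIM54 has only an _s_at probe set, so 0 genes were 2-fold higher without the shared classes; with a floor of 397 its log2 ratio was 1.04. Genes departing from their neighbours by 2-fold numbered 2 as reported. They numbered 5 with a floor of 17.2 (the 25th percentile), 1 with probe sets averaged, 1 with that nearest to equality and 1 without the shared classes. At 1.5-fold 13 departed, and at 3-fold 1. SH3YL1 departed below its neighbours under 3 settings (no floor, a floor of 17.2, 6 nearest genes), and KCNS3 under 2 (a floor of 397, 20 nearest genes). EFR3B did not depart against the 50 nearest genes of chromosome 2, where FAM110C did. Of 357 values of 37 named genes under the alternatives, 342 moved by less than the pooled SD of probe sets within genes (0.31), 15 moved by more and 0 turned a 2-fold difference around. Only TRIM54, KCNS3, VSNL1 and WDR35 were 2-fold different as reported and could be counted as turned around. Changes of sign in smaller ratios were not counted. No paired analysis was possible because each group has 1 sample. Detection calls and scanner files were not used here, so signal over background is judged by the floor alone.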
